A study of Mus musculus with 42 samples.

Results

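The insulin and IGF pathway was followed through 10 genes, chosen by symbol from the 35275 genes of the deposited tables: the ligand gene Igf1, the receptor genes Insr and Igf1r, the adaptor genes Irs1 and Irs2, the binding protein genes Igfbp2 and Igfbp5, and the transcription factor genes Foxo1, Foxo3 and Foxo4. All 10 were found and all 10 passed the filter on low counts. The 10 genes and the pathway lists used below were chosen with earlier results of these data known, so counts of them are descriptive. RNA was sequenced from the cerebellum of male C57/BL6NTac mice (strain label C57BL/6) in 30 libraries, 5 for each of 6 groups. From 3 months of age the mice were fed ad libitum (AL), fasted for 16 h of each day with food from the morning to mid-afternoon (IF16), or had 24 h with food and 24 h without by turns, known as every other day (EOD), and these groups were taken after 3 months, at 6 months of age. For the groups whose labels add the letter R, here called refed AL, refed IF16 and refed EOD, the same regimens came first and all mice then had free food for 2 months, up to 8 months of age, so that refed AL never fasted. Water was free in all groups. The hour of collection and the time since the last meal are not given in the sources used here, nor is it stated that each library is a separate mouse, so the p-values measure the spread between these libraries. The comparisons ask whether fasting altered the RNA level of each gene against controls of the same age, whether a difference was still there after refeeding, and whether the regimens differed.

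Insulin and IGF1 bind related receptor tyrosine kinases, which phosphorylate the adaptors IRS1 and IRS2. The adaptors recruit PI3 kinase, and the kinase AKT, activated in turn, phosphorylates FOXO factors and keeps them out of the nucleus. When insulin and IGF signals are low, as in fasting, FOXO factors enter the nucleus and act on genes of metabolism, stress resistance and the cell cycle, and in liver and muscle Irs2 and Insr are known to be among them. IGF-binding proteins hold IGFs in the extracellular fluid and set how much ligand reaches the receptor. Most of this control acts on proteins, through phosphorylation and location, which RNA levels do not measure.

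In mm10, Igfbp2 (chr1:72824503-72852474, plus strand) and Igfbp5 (chr1:72857932-72874884, minus strand) are neighbours that point towards each other with 5457 bases between them. A RefSeq promoter entry (GRCm38.p6) was matched by symbol for 8 of the 10 genes. Igfbp2 had 2 entries, of which the first is printed. The windows printed here are the 120 bases just before the RefSeq start site of 4 genes whose levels moved together across libraries (Igf1r, Irs1, Irs2 and Igfbp5), of Igfbp2, the gene that varied most, and of Foxo1. They run 5′ to 3′ on the strand of the gene, and capitals mark the letters GGGCGG on either strand, the core of the GC box that SP-family factors bind.
Igf1r: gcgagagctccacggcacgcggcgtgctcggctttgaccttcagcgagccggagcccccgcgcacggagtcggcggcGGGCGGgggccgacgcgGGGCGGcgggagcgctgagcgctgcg
Irs1: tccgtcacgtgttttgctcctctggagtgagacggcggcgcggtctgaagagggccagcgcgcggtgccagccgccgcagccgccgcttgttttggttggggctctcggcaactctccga
Irs2: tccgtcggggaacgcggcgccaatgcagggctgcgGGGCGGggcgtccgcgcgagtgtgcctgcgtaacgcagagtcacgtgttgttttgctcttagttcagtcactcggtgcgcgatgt
Igfbp5: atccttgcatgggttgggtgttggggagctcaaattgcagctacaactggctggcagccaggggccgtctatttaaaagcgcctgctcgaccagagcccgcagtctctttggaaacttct
Igfbp2: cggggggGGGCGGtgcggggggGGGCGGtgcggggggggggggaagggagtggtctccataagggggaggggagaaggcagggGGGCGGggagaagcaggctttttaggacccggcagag
Foxo1: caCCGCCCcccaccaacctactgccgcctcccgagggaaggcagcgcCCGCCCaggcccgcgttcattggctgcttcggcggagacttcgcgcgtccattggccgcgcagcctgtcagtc
The windows lie at chr7:67952137-67952256 (plus strand), chr1:82291440-82291559 (minus strand), chr8:11008930-11009049 (minus strand), chr1:72874866-72874985 (minus strand), chr1:72824360-72824479 (plus strand) and chr3:52268217-52268336 (plus strand). Over the 250 bases before the start site, GGGCGG was found on either strand for 6 of the 8 genes, against 32.7% of all 32851 promoters. The promoters of Igfbp5 and Igf1 did not hold it, and both matches of Irs1 lie before the window printed. The second entry of Igfbp2, with 56.4% G and C, did not hold it either. A gene was counted if any of its entries held the string, whereas the percentages are shares of promoters. The letters GTAAACA, the core to which FOXO factors bind, were found on either strand in 0 of the 8, against 3.17% of all promoters. TATAAA was found in 0 of the 8, against 12.4%, and none of the 3 strings overlaps another. The share of G and C over the 250 bases was highest for Igf1r (77.6%), Foxo3 (76.4%), Irs2 (72.8%) and Irs1 (72.4%) and lowest for Igf1 (52.8%), and the median of all promoters was 52.4%. A match is a string of letters and not a bound site, and no match says only that these letters are not in this window.

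Per length of transcript, the binding protein genes had the highest means of the 10 over all 30 libraries. The mean of the deposited FPKM (fragments scaled to transcript length and library size) over the 30 libraries was 48.1 ± 29.1 (SD) for Igfbp2 and 43.0 ± 5.06 for Igfbp5. Foxo3 followed at 33.1 ± 5.13 FPKM, Irs2 at 18.4 ± 4.70 and Foxo4 at 10.9 ± 0.922. Insr had 7.29 ± 1.03 FPKM, Igf1r 5.41 ± 1.64 and Foxo1 4.54 ± 0.715, and Irs1 (1.86 ± 0.573) and Igf1 (0.859 ± 0.140) were lowest. Means ± 1 SD overlapped between the neighbours Igfbp2 and Igfbp5, Igfbp5 and Foxo3, Insr and Igf1r, and Igf1r and Foxo1, and did not overlap between the other neighbours in this order. On this scale Foxo3 was the most abundant of the 3 FOXO genes, and Irs2 was well above Irs1. The first rank of Igfbp2 did not hold in the refed groups. There Igfbp2 averaged 32.8 (refed AL), 26.2 (refed IF16) and 36.0 FPKM (refed EOD), below Igfbp5 in each (43.3, 45.0 and 41.2). Igfbp2 was also below Foxo3 in refed AL (35.4) and refed IF16 (38.5).

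Libraries held 26799825 to 36167435 gene counts. Summed markers of granule cells, the main neurons of the cerebellum, ran from 3663 to 5152 CPM (counts scaled to library size) and those of Purkinje cells from 2876 to 3370, whereas 8 forebrain markers summed to at most 11.6 CPM. Both of the following library properties moved with some of the 10 genes. The length gradient, the slope of log2 CPM on log2 transcript length across genes relative to the mean of all libraries, was -0.253 in AL replicate 4, -0.189 in AL replicate 5 and -0.189 in IF16 replicate 1, and between -0.0868 and 0.107 in the other libraries. The sum of 12 choroid plexus markers ran from 40.1 to 4281 CPM in the libraries of 6 months and from 33.2 to 2311 CPM in those of 8 months, with none of the 12 at 0 in any library. The median transcript length was 5779 bases for the 10 genes and 2963 bases for all genes tested.

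**Figure D1:**
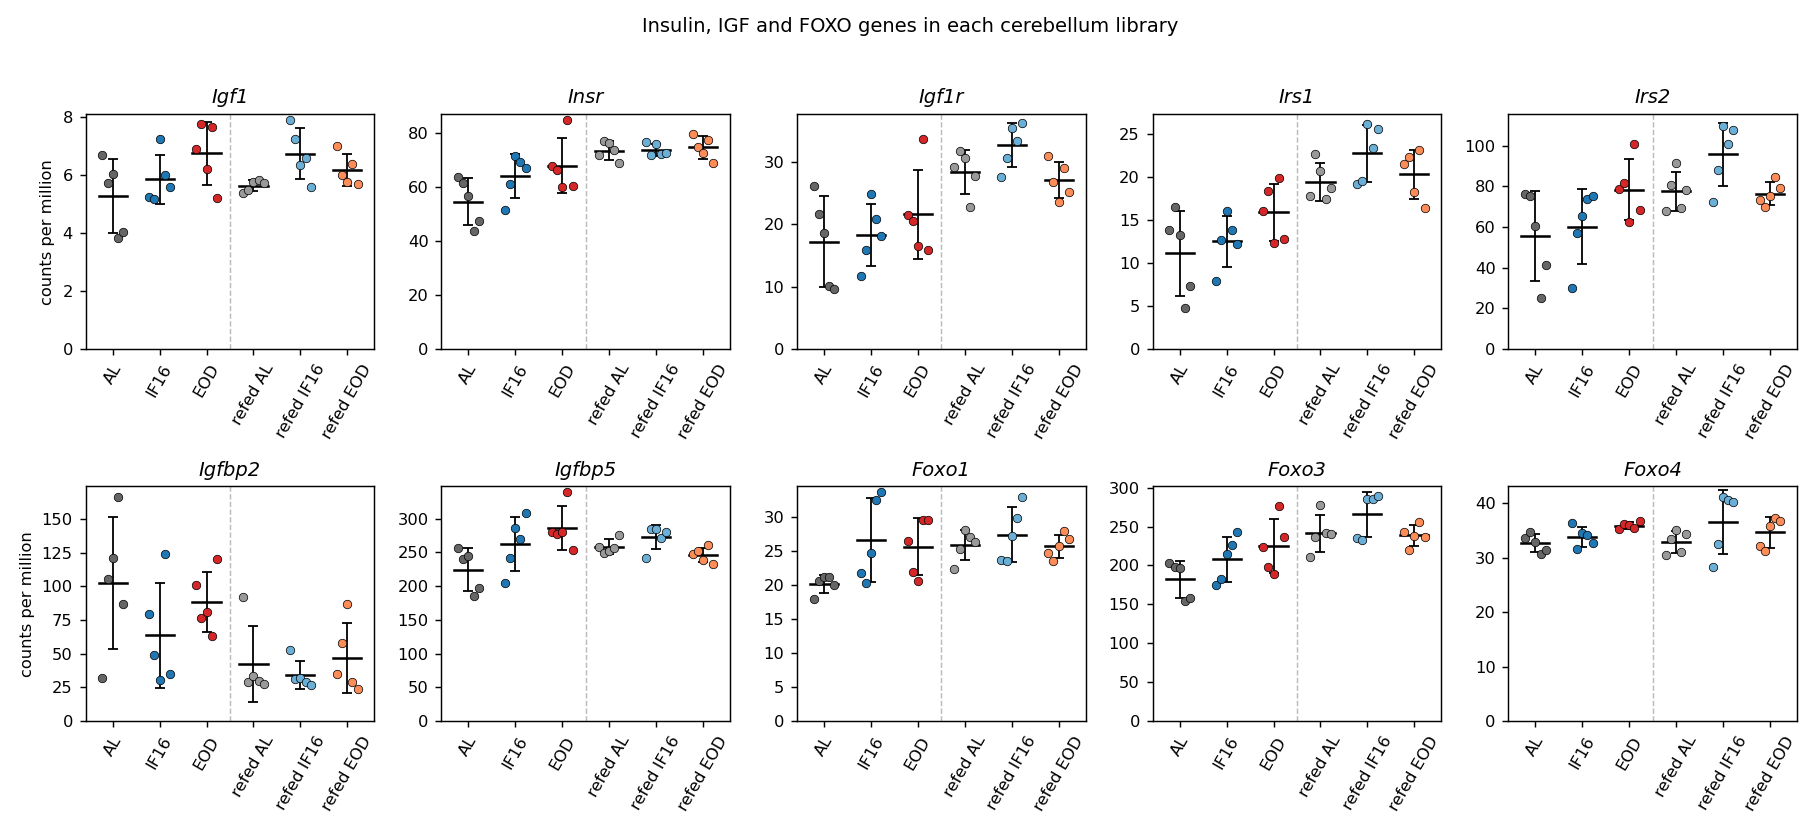
Level of each of the 10 genes in CPM (y axis, from 0) in the 5 libraries of each group (x axis). Points are libraries, the horizontal line is the group mean and the bar is ± 1 SD. Groups left of the dashed line were taken at 6 months of age and those right of it at 8 months. Across the libraries the highest value was 6.95 times the lowest for Igfbp2 and 1.46 times for Foxo4.

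After 3 months of alternate-day fasting, 9 of the 10 genes had a fitted level above that of the AL libraries, against 46.7% of all genes, and none of the 10 passed the test. The fitted values of the 9 ran from 1.10-fold for Foxo4 to 1.43-fold for Irs1, and Igfbp2 was the exception at 0.861-fold. In edgeR's quasi-likelihood test with Benjamini-Hochberg adjustment, 0 of the 10 were called at an adjusted p under 0.05, against 0.0664% of the 16577 genes tested. At an unadjusted p under 0.05, 6 of the 10 were higher and 0 lower, against 7.02% of all genes higher and 7.4% lower. The median log2 fold change of the 10 was 0.34, and that of all genes was -0.02. In bulk tissue, a difference in RNA per cell and a difference in the number of cells that express a gene cannot be told apart.

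Among the receptors, Insr, the insulin receptor gene, had 63.7, 61.7, 56.7, 43.7 and 47.5 CPM in the 5 AL libraries and 68.0, 66.5, 59.99, 85.0 and 60.3 CPM in the 5 EOD libraries. The groups overlapped, with AL replicates 4 and 5 lowest and EOD replicate 4 highest. The log2 fold change of Insr was 0.32 (95% interval 0.06 to 0.57, adjusted p = 0.317). Igf1r, the IGF1 receptor gene, spread over 9.61 to 26.3 CPM in AL and 15.8 to 33.7 in EOD, and its log2 fold change was 0.33 (95% interval -0.26 to 0.91). Igf1, the ligand gene, averaged 5.26 ± 1.27 CPM (SD, n = 5) in AL and 6.73 ± 1.07 in EOD. Its log2 fold change was 0.36, with an adjusted p of 0.339.

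The adaptor genes showed the largest fitted fold changes and wide errors. Irs2, the adaptor gene known to respond to fasting in liver, had 76.0, 75.3, 60.4, 24.9 and 41.5 CPM in AL and 78.7, 81.6, 62.3, 101 and 68.4 CPM in EOD. The groups overlapped, with the lowest values in AL replicates 4 and 5 and the highest in EOD replicate 4. The log2 fold change of Irs2 was 0.50 (95% interval -0.07 to 1.07, adjusted p = 0.373). Irs1, the related adaptor gene, ran from 4.74 to 16.6 CPM in AL and from 12.3 to 19.95 in EOD, a log2 fold change of 0.51 (-0.05 to 1.08, adjusted p = 0.367).

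Igfbp5, which binds IGFs outside the cell, had the smallest p of the 10 genes in this comparison. Its levels were 256, 240, 244, 185 and 197 CPM in AL and 280, 277, 281, 340 and 254 CPM in EOD. One EOD library lay just below the highest AL library and the other 4 lay above all AL libraries. The log2 fold change was 0.35 ± 0.11 (SE), with an adjusted p of 0.287 in edgeR. Igfbp2, its neighbour on chromosome 1, averaged 102 ± 49.2 CPM in AL and 88.3 ± 22.5 in EOD, and its log2 fold change of -0.22 had an interval from -1.03 to 0.60.

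Foxo4 was the one gene of the 10 whose EOD and AL libraries did not overlap, which 1.34% of all genes also showed in the higher direction. It had 33.5, 34.7, 32.9, 30.6 and 31.4 CPM in AL and 35.2, 36.2, 35.9, 35.3 and 36.7 CPM in EOD. The EOD libraries were close together, all within the range of 35.2 to 36.7 CPM, and the size of the difference was 1.10-fold (95% interval 1.01 to 1.19, adjusted p = 0.325). Foxo3, the FOXO gene most often tied to longevity, averaged 182 ± 24.0 CPM in AL and 225 ± 34.5 in EOD (log2 fold change 0.31, adjusted p = 0.317). Foxo1, the main FOXO factor of insulin action in liver, averaged 20.2 ± 1.32 CPM in AL and 25.6 ± 4.21 in EOD (log2 fold change 0.34, adjusted p = 0.325).

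The count of 6 genes rested on few libraries. It was 2 without AL replicate 4, 2 without AL replicate 5, 2 without EOD replicate 4, and 2 without the 3 libraries of lowest length gradient. With the length gradient as a covariate it was 3 (Insr, Igfbp5 and Foxo4), against 4.45% of all genes higher, and the log2 fold changes were then 0.11 for Insr, 0.17 for Igfbp5, 0.13 for Foxo4, 0.08 for Irs2 and -0.13 for Igf1r. With the choroid plexus index as a covariate 7 of the 10 were higher at an unadjusted p under 0.05 (Insr, Igf1, Irs2, Igfbp5, Foxo1, Foxo3 and Foxo4) and 1 was lower, Igfbp2, at a log2 fold change of -0.41 (adjusted p = 0.192 in edgeR). The share of all genes is not given here for this fit or for those without libraries, so these counts cannot be set against it.

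**Figure D2:**
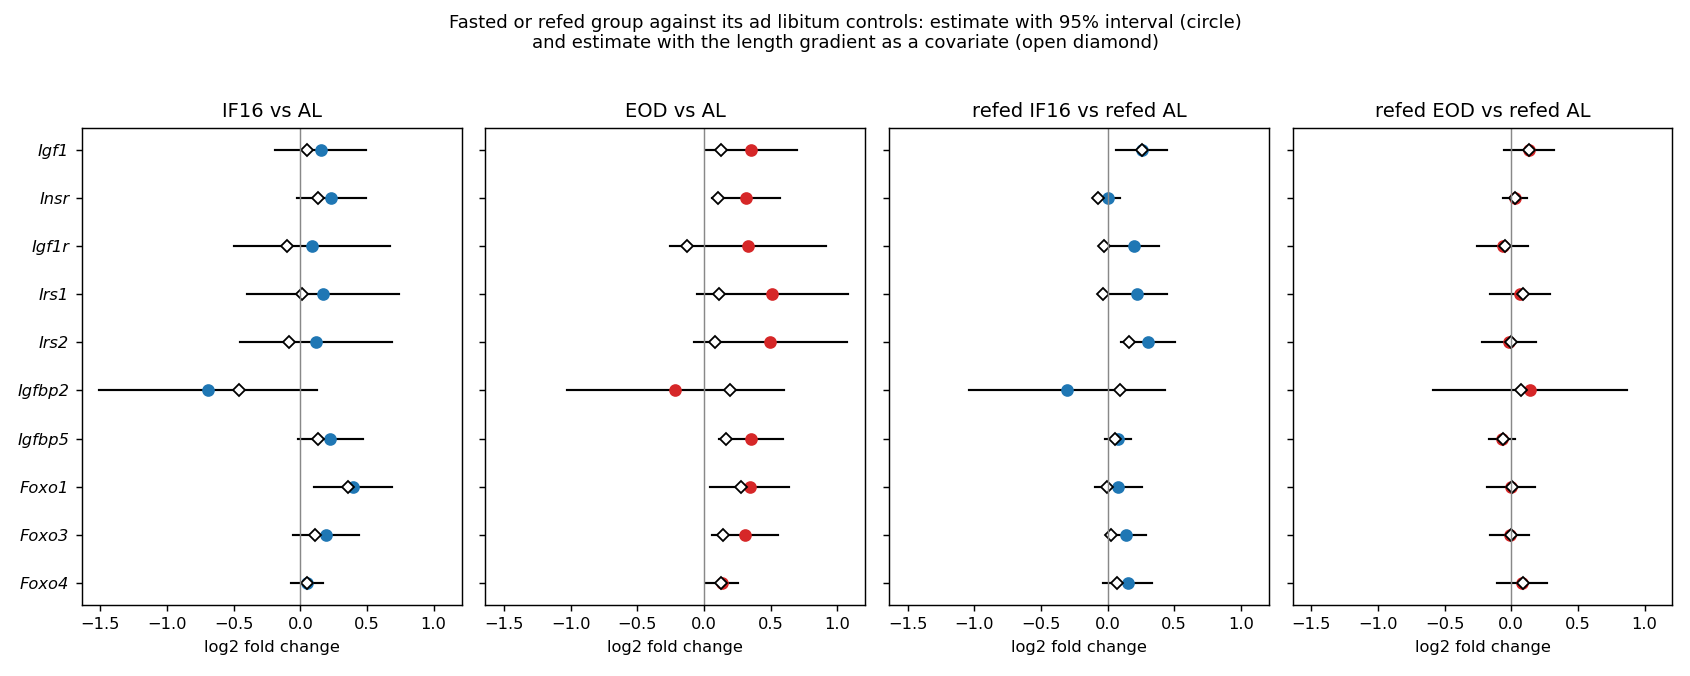
Log2 fold change (x axis) of the 10 genes (y axis) in each fasted or refed group against its ad libitum controls. Circles are edgeR estimates with 95% intervals, and open diamonds are the estimates with the length gradient of each library as a covariate. For EOD against AL the diamonds of Irs1, Irs2 and Igf1r lie at 0.12, 0.08 and -0.13, away from their circles, whereas those of Foxo1 (0.28) and Foxo4 (0.13) lie close to them. For refed EOD against refed AL the intervals of all 10 genes cross 0.

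After daily 16 h fasting, again 9 of the 10 genes had a fitted level above AL, against 48.7% of all genes, and none passed the test (0 of 10 called, against 0.0483% of 16577 genes). Foxo1 was the one gene with an unadjusted p under 0.05, where 4.35% of all genes were higher and 5.57% lower. It had 18.0, 20.7, 21.2, 21.1 and 19.99 CPM in AL and 21.8, 20.3, 24.7, 32.5 and 33.7 CPM in IF16. IF16 replicates 4 and 5 stood well above all AL libraries and IF16 replicate 2 lay among them. The log2 fold change of Foxo1 was 0.40 ± 0.14 (SE), with an adjusted p of 0.398 in edgeR.

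In the same comparison Insr had a log2 fold change of 0.23, Igfbp5 0.23, Foxo3 0.19, Irs1 0.17, Igf1 0.15, Irs2 0.11, Igf1r 0.08 and Foxo4 0.05, with adjusted p values from 0.528 to 0.919. Igfbp2 averaged 63.6 ± 38.7 CPM in IF16, a log2 fold change of -0.69 with a 95% interval from -1.51 to 0.13. At an unadjusted p under 0.05, 3 of the 10 (Insr, Igfbp5 and Foxo1) were higher in the fit with the length gradient as a covariate, against 7.64% of all genes. The count was also 3 without AL replicate 1 or IF16 replicate 1, and 2 without AL replicate 2, fits for which the share of all genes is not given here.

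Between EOD and IF16, 0 of the 10 genes were called, against 0% of 16577 genes. EOD was above IF16 in 9 of the 10 fitted values, against 49.8% of all genes, and 0 of the 10 had an unadjusted p under 0.05, which 1.76% of all genes had in the higher and 1.86% in the lower direction. The 95% interval of the log2 difference was -0.17 to 0.34 for Insr, -0.35 to 0.24 for Foxo1, -0.13 to 0.25 for Foxo3 and -0.03 to 0.20 for Foxo4. For Igf1r (-0.34 to 0.83), Irs1 (-0.22 to 0.91), Irs2 (-0.19 to 0.95) and Igfbp2 (-0.34 to 1.29) it was wide.

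After 2 months of refeeding, no difference between refed EOD and refed AL was detected in these genes. Of the 10, 0 were called (0.0426% of 16444 genes) and 0 had an unadjusted p under 0.05 in either direction (4.51% and 3.99% of all genes), and 5 of the 10 fitted values were above 0, against 50.3% of all genes. The FOXO genes averaged 25.7 ± 1.69 (Foxo1), 239 ± 13.3 (Foxo3) and 34.6 ± 2.80 CPM (Foxo4) in refed EOD, beside 25.9 ± 2.18, 241 ± 23.7 and 32.9 ± 2.06 CPM in refed AL. The 95% interval of the log2 difference was -0.06 to 0.12 for Insr, -0.16 to 0.03 for Igfbp5, -0.16 to 0.14 for Foxo3, -0.18 to 0.18 for Foxo1 and -0.22 to 0.19 for Irs2. For Igf1 it was -0.06 to 0.32, for Irs1 -0.16 to 0.29, for Foxo4 -0.11 to 0.27, for Igf1r -0.255 to 0.125 and for Igfbp2 -0.59 to 0.87. The absence of a call therefore does not show equal levels.

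Whether the EOD effect at the end of the regimen differed from that after refeeding was tested as an interaction over all 30 libraries. None of the 10 genes was called (0.0119% of 16877 genes). The estimate was above 0 for 1 of the 10, against 51% of all genes. At an unadjusted p under 0.05, 3 of the 10 had a lower effect after refeeding and 0 a higher one, against 4.86% and 5.48% of all genes. These were Igfbp5 (log2 difference of effects -0.42, adjusted p = 0.334 in edgeR), Foxo3 (-0.32, adjusted p = 0.467) and Insr (-0.29, adjusted p = 0.471). The count was 1 with the length gradient as a covariate, without the 3 libraries of lowest length gradient, and without AL replicate 4, AL replicate 5, EOD replicate 4 or refed AL replicate 3, and 5 without AL replicate 2. With the gradient as a covariate 3.09% of all genes had a lower effect at that level, and for the other settings the share is not given here.

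For daily fasting, 0 of the 10 interactions were called (0.0474% of all genes), and 0 had an unadjusted p under 0.05, against 3.93% of all genes in the higher and 3.28% in the lower direction. Here 6 of the 10 estimates were above 0, against 49% of all genes. Foxo1 had the smallest p (log2 difference of effects -0.31, 95% interval -0.66 to 0.04). Insr had a log2 difference of effects of -0.20 (adjusted p = 0.0828) in the fit with the length gradient, and -0.23 (adjusted p = 0.747) without it.

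Refed IF16 showed small differences from refed AL in the ligand, one receptor and both adaptor genes, none of which passed the test. Irs2 had 67.7, 80.5, 91.6, 69.1 and 78.4 CPM in refed AL and 72.5, 87.9, 109, 101 and 108 CPM in refed IF16. Refed IF16 replicates 3, 4 and 5 lay above all refed AL libraries, and replicate 1 lay among the lower refed AL values. The refed IF16 library was the higher in all 5 pairs of the same replicate number. The labels give only the number, so this pairing comes from the data. The other genes of the 10 were higher in 1 to 4 of the 5 pairs, and the share of all genes higher in all 5 was not computed. The log2 fold change of Irs2 was 0.30 (95% interval 0.10 to 0.51, adjusted p = 0.336 in edgeR). With the replicate number as a block, which rests on the same pairing, it was 0.29 (adjusted p = 0.0642). Without refed IF16 replicate 1 Irs2 was called, at a log2 fold change of 0.39 and an adjusted p of 0.0363. That was the one call of any of the 10 genes, under any alternative tried, in a comparison of a fasted or refed group with its controls.

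Igf1 had 5.37, 5.49, 5.73, 5.83 and 5.71 CPM in refed AL and 7.87, 7.23, 6.33, 6.57 and 5.56 CPM in refed IF16. All but 1 of the refed IF16 libraries were above all controls, and the log2 fold change was 0.26 (adjusted p = 0.351). Igf1r averaged 28.5 ± 3.52 CPM in refed AL and 32.8 ± 3.57 in refed IF16, a log2 fold change of 0.20 with an adjusted p of 0.495, and Irs1 averaged 19.5 ± 2.22 and 22.8 ± 3.33 CPM, a log2 fold change of 0.22 with an adjusted p of 0.519. Insr had the narrowest interval, -0.09 to 0.09, around means of 73.6 ± 3.44 CPM in refed AL and 73.9 ± 2.21 in refed IF16.

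In this comparison 0 of the 10 genes were called (0.17% of 16444 genes), 9 of the 10 fitted values were above 0 (48.8% of all genes), and 4 had an unadjusted p under 0.05 in the higher and 0 in the lower direction, against 4.76% and 4.83% of all genes. With the replicate number as a block edgeR called 95 genes among all in place of 28, again 0 of the 10, and 6 of the 10 were higher at an unadjusted p under 0.05. The count was 2 without refed AL replicate 4, without refed IF16 replicate 3, 4 or 5, or with the choroid plexus index as a covariate, and 7 without refed IF16 replicate 1. It was 1 with the length gradient as a covariate, against 2.17% of all genes. For the block and the other settings the share of all genes is not given here, so their counts cannot be set against it. The gradient was 0.0487 to 0.0950 in refed IF16 and 0.0213 to 0.0541 in refed AL. With it the log2 fold changes were -0.03 for Igf1r, -0.03 for Irs1, 0.16 for Irs2 and 0.26 for Igf1.

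Between refed EOD and refed IF16, which shares its libraries with the comparison just given, 0 of the 10 genes were called (0.0182% of 16444 genes) and 2 of the 10 fitted values were above 0, against 52.1% of all genes. At an unadjusted p under 0.05, 3 of the 10 were lower in refed EOD and 0 higher, against 4.76% and 4.99% of all genes. They were Irs2 (log2 difference -0.32, adjusted p = 0.307 in edgeR), Igfbp5 (-0.14, adjusted p = 0.333) and Igf1r (-0.26, adjusted p = 0.333). With the length gradient as a covariate 0 of the 10 were lower at that level and 1 was higher, against 2.29% and 2.21% of all genes.

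Several of the 10 genes passed the test only between the control groups, refed AL at 8 months against AL at 6 months, where 6 of the 10 were called, against 23.9% of 16877 genes. Insr rose 1.35-fold (95% interval 1.18 to 1.54, adjusted p = 0.00559 in edgeR). Foxo3 rose 1.33-fold (adjusted p = 0.00994), Irs1 1.74-fold (adjusted p = 0.0127), Igf1r 1.65-fold (adjusted p = 0.0209) and Foxo1 1.28-fold (adjusted p = 0.036). Igfbp2 fell to 0.414-fold (95% interval 0.233 to 0.736, adjusted p = 0.0269). Insr had 71.8, 77.3, 76.4, 73.8 and 68.8 CPM in refed AL, beside 43.7 to 63.7 in AL. For Insr, Irs1, Foxo1 and Foxo3 (4 of 10) all refed AL libraries lay above all AL libraries, as for 4.97% of all genes. Irs2 (log2 fold change 0.48, adjusted p = 0.0981) and Igfbp5 (0.20, adjusted p = 0.0956) were not called, and Foxo4 and Igf1 had log2 fold changes of 0.01 and 0.10. At an unadjusted p under 0.05, 7 of the 10 were higher and 1 lower (19.1% and 20.9% of all genes), and 9 of the 10 fitted values were above 0 (48.2%).

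Age and library set go together in this comparison and cannot be told apart. None of the 10 was called with the length gradient as a covariate, without the 3 libraries of lowest length gradient, or in a fit of these groups alone, and 3 (Insr, Irs1 and Foxo3) were called with the choroid plexus index as a covariate. Insr alone was called without AL replicate 4, Insr and Foxo3 without AL replicate 5, and 3 genes without refed AL replicate 2. Far fewer of all genes were also called with either covariate, without the 3 libraries and in the fit of these groups alone. Their numbers are in the closing section. For each fit without a single library the share of all genes is not given here. The loss of calls is therefore not a result about the 10 genes.

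Within groups, most of the 10 genes moved together from library to library, and the length gradient moved with them. Over the 15 libraries of AL, IF16 and EOD, both measures were centred on the group mean. Pearson's r with the length gradient was then at least 0.8 for 7 of the 10 genes, against 15.8% of all genes. A further 12.1% of all genes had an r at least as strong in the negative direction. The gradient is computed from the levels and lengths of the genes, so longer genes tend to follow it by construction. The 10 genes had a median length of 5779 bases against 2963 for genes tested, and the 15.8% was not matched for length. The permutation p values below therefore do not show a link beyond that of length. For Insr r was 0.979 and Spearman's rho 0.975 (permutation p = 1e-05 for both, the smallest that the permutations can give; adjusted to 0.000267 and 4e-04 over the 40 relations computed). Leaving out the 2 libraries with the most extreme gradient, AL replicates 4 and 5, r was 0.97. For Igf1r r was 0.97 (rho 0.975, r 0.968 without these libraries), for Irs2 0.938 (rho 0.914, r 0.897), for Igfbp5 0.936 (rho 0.907, r 0.907), for Irs1 0.927 (rho 0.929, r 0.879) and for Igf1 0.891 (rho 0.886, r 0.786). Adjusted permutation p values of these 5 were at most 8e-04 for r and 0.0016 for rho.

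Foxo3 had r = 0.814 and rho = 0.818 with the gradient (adjusted permutation p = 0.006 and 0.00716), and without AL replicates 4 and 5 r was 0.727 with an adjusted permutation p of 0.08. Foxo1 had r = 0.262 and rho = 0.225, and Foxo4 r = 0.217 and rho = 0.332, with adjusted permutation p values of 0.494 and 0.614 for r. After refeeding the gradient spanned a narrower range. There Igf1r had r = 0.773 and rho = 0.807 (adjusted permutation p = 0.00888 and 0.0057) and Irs1 r = 0.735 and rho = 0.7 (0.0341 and 0.0375), and r was 0.707 and 0.634 without refed IF16 replicates 3 and 5, with adjusted permutation p values of 0.0631 and 0.192. Insr had r = 0.663 and rho = 0.729 (adjusted permutation p = 0.051 and 0.0205), and its r was 0.759 without the same libraries (adjusted permutation p = 0.0609). Beyond these correlations and the covariate fits, the part of the length gradient in the levels of these genes was not tested.

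**Figure D3:**
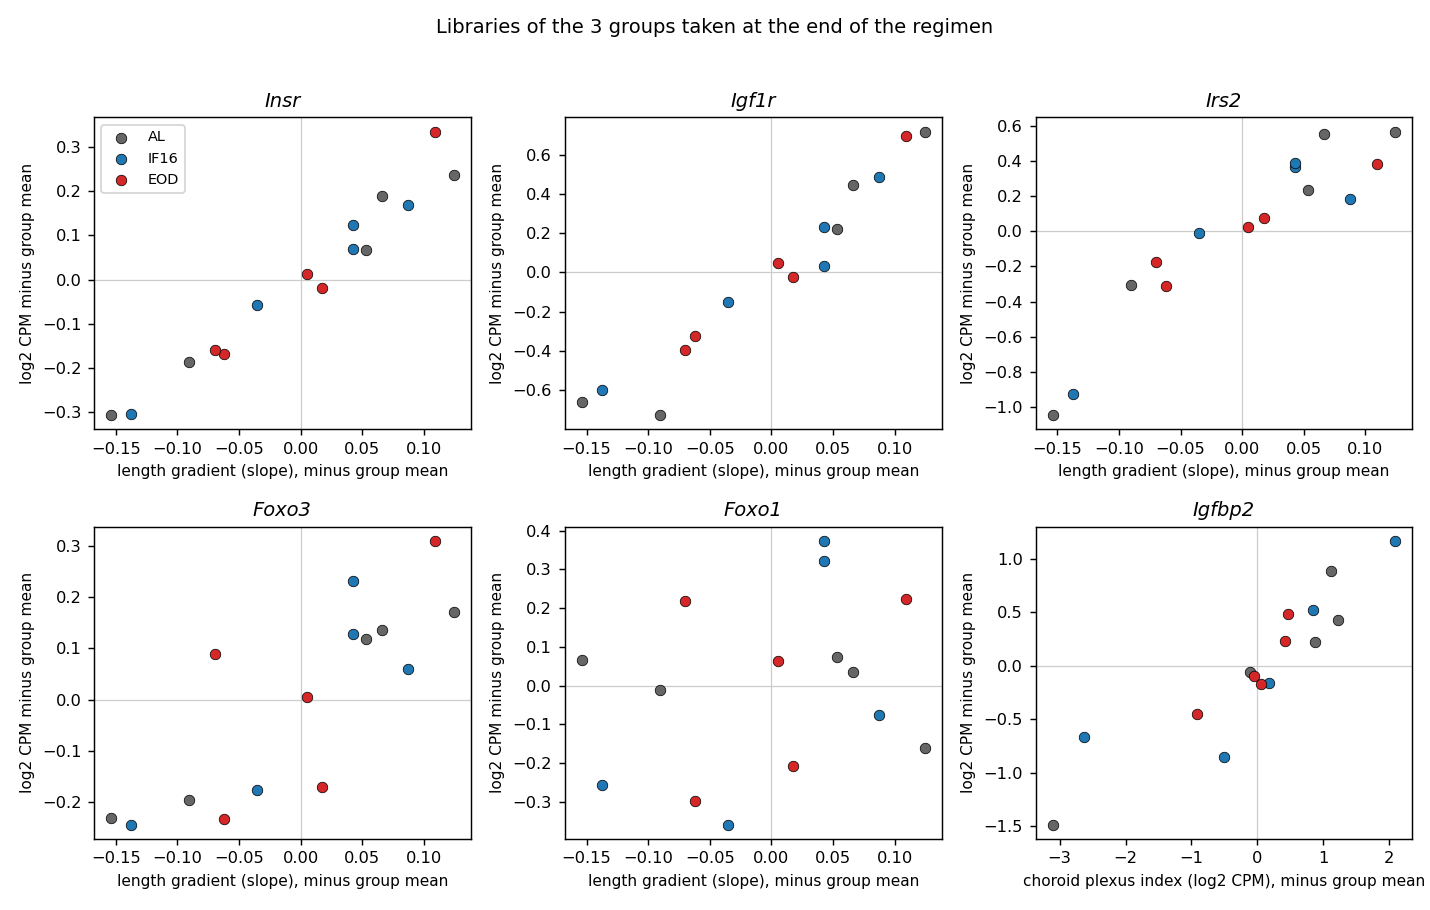
Log2 CPM of 6 genes minus the group mean (y axis) against the length gradient or, for Igfbp2, the choroid plexus index (mean log2 CPM of 12 markers), also minus the group mean (x axis), in the 15 libraries of AL, IF16 and EOD. Points are libraries, coloured by group. Insr (r = 0.979), Igf1r (0.97) and Irs2 (0.938) follow the gradient closely, Foxo3 less closely (0.814) and Foxo1 with r = 0.262, and Igfbp2 follows the choroid plexus index (0.912).

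Igfbp2 stood apart from the other genes. Its group-centred level over the 30 libraries had negative correlations with all of them, from -0.466 with its neighbour Igfbp5 to -0.041 with Foxo1, whereas the correlation was 0.917 between Insr and Igf1r, 0.894 between Irs1 and Irs2 and 0.748 between Foxo1 and Foxo3. IGFBP2 is known to be made by the epithelium of the choroid plexus, a tissue of the ventricle beside the cerebellum. Igfbp2 had 32.2, 105, 121, 167 and 86.7 CPM in AL, 79.3, 49.3, 30.5, 124 and 34.9 CPM in IF16, and 101, 76.5, 80.7, 63.2 and 120 CPM in EOD. AL replicate 1 and IF16 replicate 5, the libraries with the lowest choroid plexus sums of their groups (45.5 and 40.1 CPM), were low in Igfbp2 too. The lowest Igfbp2 level of IF16 was in replicate 3, however. Its choroid plexus index of 2.06 was above that of replicate 5 (-0.06).

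Over these 15 libraries Igfbp2 followed the choroid plexus index with r = 0.912 and rho = 0.907 (adjusted permutation p = 8e-04 for both), and r was 0.932 without AL replicate 1 and IF16 replicate 5. An r of at least 0.9 was reached by 1 of the 10 genes and by 0.373% of all genes. After refeeding most libraries had low choroid plexus indices and a few had high ones, with refed AL replicate 3 (1.71) and refed IF16 replicate 5 (1.31) in between. The pooled r of 0.917 (adjusted permutation p = 0.00425) mixes these sets. It was 0.832 without refed EOD replicate 3 and refed AL replicate 1 (adjusted permutation p = 0.08). Refed AL replicate 1, refed IF16 replicate 1 and refed EOD replicates 2 and 3 had the highest choroid plexus indices, and their Igfbp2 levels were 92.5, 52.5, 57.8 and 87.3 CPM. In the other 11 refed libraries Igfbp2 lay between 24.0 and 34.9 CPM. The median choroid plexus sum was 2113 CPM in AL and 46.3 CPM in refed AL, beside the lower Igfbp2 level in refed AL. With the index as a covariate the log2 fold change of Igfbp2 between refed AL and AL was -0.51 (adjusted p = 0.0754) in place of -1.27.

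The genes whose pattern was most like each member were taken by Pearson's r of group-centred log2 CPM over the 30 libraries among 13086 expressed genes, as a description. For Igfbp2 they were Sema3b (r = 0.981), Ace (0.98) and Abca4 (0.971). For Foxo1 they were Mertk (0.857), Tmem229b (0.856) and Fkbp5 (0.849), for Foxo3 Specc1 (0.906), Fam117b (0.904) and Tbc1d30 (0.89), and for Foxo4 Plaur (0.842), Dnajb1 (0.791) and Lsm14a (0.791). Irs2 was closest to Klf9 (0.958), Spen (0.953) and Enah (0.951), and Irs1 to Eif4ebp2 (0.961), Dync1li2 (0.957) and Dstyk (0.955). Insr was closest to Akap6 (0.957), Scn8a (0.955) and Srgap1 (0.944), and Igf1r to Stox2 (0.963), Adcy1 (0.962) and Ppp1r12b (0.961). Igfbp5 was closest to Cyfip2 (0.925), Amot (0.915) and Trappc10 (0.913), and Igf1 to Sestd1 (0.888), Ankrd28 (0.874) and Whsc1 (0.871). The libraries share the length gradient and choroid plexus differences described above, which these values include.

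Spread between libraries was higher in the 10 genes than in genes at large in all groups but refed EOD. The median coefficient of variation of CPM was 20.1% for the 10 and 14.9% for all genes in AL, 19.4% and 13.2% in IF16, and 16.2% and 10.3% in EOD. It was 9.14% and 6.96% in refed AL, 13.9% and 8.26% in refed IF16, and 7.73% and 7.91% in refed EOD. Foxo4 had the smallest value of the 10 in EOD, 1.79%, and Igfbp2 in refed AL the largest of any group, 66.1%.

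The rest of the pathway was read through lists of its other genes, and none of them was called by edgeR in a comparison of a fasted or refed group with its controls. Of 11 other ligands, receptors and binding proteins, 9 passed the filter among the libraries of 6 months, and 0 were higher and 2 lower in IF16 at an unadjusted p under 0.05, and 1 higher and 0 lower in EOD. Among all genes 4.35% were higher and 5.57% lower in IF16, and 7.02% and 7.4% in EOD. The gene of this list with the smallest p was Igfbp7, a secreted IGFBP-related protein, for IF16 (log2 fold change -0.29, adjusted p = 0.432) and Igf2r, the receptor that clears IGF2, for EOD (0.29, adjusted p = 0.325). Ins2, a gene for insulin itself, had 0 to 26 counts per library, too few for a fold change to be given.

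Among 22 adaptor, PI3 kinase and AKT genes, 2 were higher and 5 lower in IF16 at an unadjusted p under 0.05, and 3 were higher and 0 lower in EOD. Of all genes, 4.35% were higher and 5.57% lower in IF16, and 7.02% higher and 7.4% lower in EOD. Akt2, the AKT gene most tied to insulin action, had 213, 255, 243, 253 and 296 CPM in AL and 213, 216, 179, 195 and 200.1 CPM in IF16. AL replicate 1 lay among the IF16 values and the other AL libraries above them. The log2 fold change of Akt2 was -0.33 (adjusted p = 0.307 in edgeR). Pik3r1, a regulatory subunit gene of PI3 kinase, had the smallest p of this list in EOD (0.23, adjusted p = 0.283).

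Of 14 negative regulators, 1 was higher and 1 lower in IF16 at an unadjusted p under 0.05, and 3 were higher and 1 lower in EOD. The shares of all genes, for this list and the next, were 4.35% higher and 5.57% lower in IF16 and 7.02% higher and 7.4% lower in EOD. Socs3, an inhibitor of cytokine and insulin receptor signalling, had the smallest p in both, with means of 2.67 ± 0.349 (AL), 1.68 ± 0.723 (IF16) and 1.70 ± 0.361 CPM (EOD) (log2 fold changes -0.66 and -0.65, adjusted p values 0.398 and 0.314). In the mTOR branch with the glycogen synthase kinases (18 genes), 0 were higher and 1 lower in IF16 (Akt1s1, an inhibitor of mTOR complex, -0.28, adjusted p = 0.451), and 3 were higher and 1 lower in EOD, where Tsc1, also an inhibitor of the branch, had the smallest p (0.25, adjusted p = 0.318). Igf2r, Pik3r1, Tsc1 and Akt1s1 moved with the length gradient within groups (r = 0.907, 0.782, 0.806 and -0.764 over 30 libraries). For Igfbp7, Akt2 and Socs3 r was -0.342, -0.356 and -0.438. Igfbp7 had r = 0.554 with the choroid plexus index. The cause of these differences was not tested.

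Of 16 FOXO partners and regulators, 3 were higher and 1 lower in IF16 at an unadjusted p under 0.05, and 5 higher and 1 lower in EOD, where all genes gave 4.35% and 5.57% in IF16 and 7.02% and 7.4% in EOD. Sgk1, a kinase that phosphorylates FOXO factors as AKT does, had the smallest p of them in both. It had 62.1, 61.7, 67.2, 74.4 and 54.6 CPM in AL, 53.8, 71.6, 126, 168 and 175 CPM in IF16, and 103, 76.3, 141, 138 and 151 CPM in EOD. All EOD libraries lay above all AL libraries, as for 1.34% of all genes, whereas the IF16 libraries spread from just below the AL range to well above it. Its log2 fold changes were 0.89 (adjusted p = 0.311) in IF16 and 0.93 (adjusted p = 0.247) in EOD, and after refeeding they were 0.04 and 0.01.

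After refeeding, the genes with the smallest p of their lists in IF16 included Igfbp7 (log2 fold change -0.24, adjusted p = 0.254), Phlpp1, a phosphatase that acts on AKT (0.16, adjusted p = 0.349), Mtor (0.10, adjusted p = 0.462) and Foxo6 (-0.34, adjusted p = 0.495). In refed EOD they were Igfbp3 (-0.25, adjusted p = 0.37), Akt1 (-0.08, adjusted p = 0.535), Socs3 (0.37, adjusted p = 0.595), Rps6, a ribosomal protein gene (0.12, adjusted p = 0.46), and Mdm2 (0.10, adjusted p = 0.598). Phlpp1, Mtor and Rps6 moved with the length gradient within groups over the 30 libraries (r = 0.913, 0.864 and -0.885). For the other genes just named r lay between -0.527 (Akt1) and 0.434 (Mdm2). Between refed AL and AL, where 23.9% of all genes were called, 1 of the other ligands, receptors and binding proteins was called higher and 1 lower, 4 adaptor, PI3 kinase and AKT genes higher and 2 lower, and 2 negative regulators higher and 0 lower. The lower calls include Ins2 and Irs4, which had only 0 to 26 and 1 to 42 counts per library. In that comparison 8 mTOR branch genes were called higher and 2 lower, 6 FOXO partners higher and 0 lower, and 3 FOXO targets higher and 5 lower. Igf2r rose there by 0.38 (adjusted p = 0.00903), Ep300, a histone acetyltransferase gene, by 0.49 (adjusted p = 0.00938) and Gsk3b by 0.45 (adjusted p = 0.0136) on the log2 scale, and Akt1s1 fell by 0.35 (adjusted p = 0.01), each with the library set confounded as above. These 4 genes moved with the length gradient within groups over the 30 libraries (r = 0.907 for Igf2r, 0.979 for Ep300, 0.978 for Gsk3b and -0.764 for Akt1s1). With the gradient as a covariate none of the 4 was called, at log2 fold changes of 0.11, 0.11, 0.06 and -0.11 in that order. Nor was any called without the 3 libraries of lowest length gradient, where the values were 0.222, 0.271, 0.255 and -0.168 (adjusted p = 0.0625, 0.113, 0.227 and 0.284 in edgeR). The call of Gsk3b was also lost without AL replicate 4 or AL replicate 5 (adjusted p = 0.0693 and 0.0579), and that of Akt1s1 without AL replicate 4 (adjusted p = 0.0517).

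Of 35 genes known as FOXO targets, 31 were tested, and those at an unadjusted p under 0.05 were mostly on the higher side. The list was chosen with earlier results of these data known, so its counts are a description and not a test. Whether FOXO factors acted on these genes was not tested. In IF16 against AL 7 were higher and 0 lower, against 4.35% and 5.57% of all genes. In EOD 11 were higher and 0 lower, against 7.02% and 7.4% of all genes. In refed IF16 5 were higher and 1 lower, against 4.76% and 4.83% of all genes. In refed EOD 13 were higher and 0 lower, against 4.51% and 3.99% of all genes. None of these genes was called by edgeR. The median log2 fold change of the list was 0.09 in IF16, 0.11 in EOD, 0.07 in refed IF16 and 0.09 in refed EOD. The count in refed EOD was 6 without refed AL replicate 1, 8 without refed AL replicate 2, 8 without refed EOD replicate 2 and 7 without refed EOD replicate 5, and that in refed IF16 was 3 without refed IF16 replicate 3 and 9 with the replicate block. For these fits the share of all genes is not given here, so their counts cannot be set against it.

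Txnip, an inhibitor of glucose uptake and of thioredoxin, had the smallest p of this list in both fasted groups. It had 16.0, 14.2, 15.7, 14.6 and 13.9 CPM in AL, 17.5, 21.0, 30.5, 41.8 and 42.4 CPM in IF16, and 27.4, 21.7, 39.96, 30.1 and 27.6 CPM in EOD. All fasted libraries lay above all AL libraries, as for 0.802% of all genes in IF16 and 1.34% in EOD. The log2 fold changes were 1.04 (adjusted p = 0.105) in IF16 and 0.98 (adjusted p = 0.153) in EOD by edgeR, and DESeq2 called Txnip in both (adjusted p = 0.000972 and 0.00331). Without IF16 replicate 1 edgeR called it in IF16 (adjusted p = 0.0196), and in a fit of EOD and AL alone edgeR called it in EOD (adjusted p = 0.0307). After refeeding the mean of Txnip was 16.1 ± 2.72 CPM for AL, 16.5 ± 4.64 for IF16 and 17.9 ± 4.44 for EOD.

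The other genes of the list at an unadjusted p under 0.05 in both fasted groups, named after their values were seen, were Pdk4, Klf15, Errfi1, Bcl6 and Ccng2. Pdk4, a kinase gene that shuts off pyruvate oxidation in fasting, averaged 7.96 ± 1.18 (AL), 12.6 ± 5.004 (IF16) and 12.98 ± 1.55 CPM (EOD) (log2 fold changes 0.67 and 0.71, adjusted p values 0.347 and 0.251). In refed IF16 and refed EOD Pdk4 was 0.37 and 0.36 above refed AL on the log2 scale (adjusted p = 0.383 and 0.458). Klf15, a transcription factor of fasting metabolism, averaged 24.1 ± 1.14 (AL), 33.0 ± 8.56 (IF16) and 34.8 ± 6.29 CPM (EOD) (log2 fold changes 0.45 and 0.53), and its refed groups averaged 28.0 ± 5.63 (AL), 27.6 ± 8.58 (IF16) and 26.8 ± 3.74 CPM (EOD).

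In refed EOD the gene of the list with the smallest p was Cdkn1b, which codes for the cell cycle inhibitor p27. It had 165, 175, 176, 179 and 179 CPM in refed AL and 192, 191, 188, 194 and 196 CPM in refed EOD, so the groups did not overlap, as for 0.937% of all genes in this direction. The difference was 1.10-fold (adjusted p = 0.171 in edgeR), and DESeq2 called it (adjusted p = 0.00567). In refed IF16 Cdkn1b had 179, 183, 193, 187 and 189 CPM, also above all refed AL libraries, as for 1.16% of all genes (log2 fold change 0.09, adjusted p = 0.371). The smallest p of this list in refed IF16 belonged to Sesn1, a stress-induced inhibitor of mTOR (log2 fold change 0.14, adjusted p = 0.349).

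**Figure D4:**
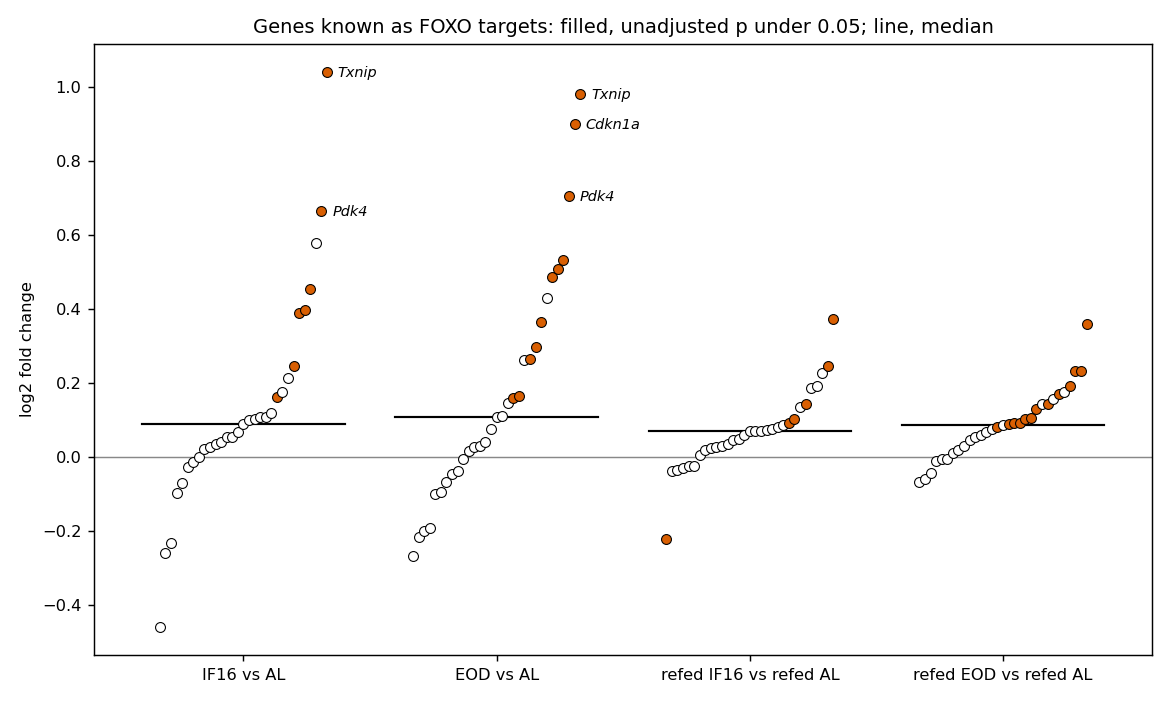
Log2 fold change (y axis) of the 31 tested genes known as FOXO targets in 4 comparisons with ad libitum controls (x axis), ordered by value within each comparison. Filled points have an unadjusted p under 0.05 and the line is the median of the list. From left to right there are 7, 11, 5 and 13 filled points above 0, and Txnip is highest in both fasted groups (1.04 and 0.98). Comparisons at the same age share their control libraries.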

How the data were processed

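The authors deposited a table of read counts per gene and a table of FPKM for each set of 15 RNA libraries, 35275 genes in all, and these are the values used here. Per the submitters' processing notes STAR 2.5, HTSeq 0.6.1 and the mm10 build were used; the annotation and the strand setting are not given in the sources used here. Antisense or overlapping transcripts may therefore share counts with a gene. The 12 ChIP samples were not analysed here.

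Counts were scaled by TMM in edgeR 4.0.16 (R 4.3.3), genes passing filterByExpr were tested with the quasi-likelihood test, and p-values were adjusted by Benjamini-Hochberg over all genes tested. AL, IF16 and EOD shared one fit, the refed groups another, and the interactions and refed AL against AL used all 30 libraries. Printed CPM values were scaled by TMM over the 30 libraries. Intervals are at 95%. The length gradient is the slope, across genes of at least 1 CPM, of log2 CPM relative to the mean of all libraries on log2 transcript length. The scripts were tested on simulated counts, of 16438 genes for EOD against AL. There 85% of genes changed by 1 log2 unit and 98% of those changed by 2 were recovered, with 8 false calls. For the EOD interaction 74% and 95% were recovered, with 14 false calls. Changes as small as most of those fitted here were not simulated, nor was a length gradient or a choroid plexus difference.

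All 10 genes are named, as are every listed pathway gene that was called or, where none was, the one with the smallest p of each list, and the 3 most like genes of each member; a gene that this rule names for refed IF16 is not reported here. For refed AL against AL, where 34 listed genes were called, counts and 4 examples are given. The 10 genes and the lists were chosen with earlier results of these data known. Alternatives were DESeq2 1.42.0, its size factors in edgeR, no filter, a replicate block, each library property as a covariate, fits of the compared groups alone and leaving out each library. Libraries of the same number deviated together in refed AL and refed IF16, where all 5 correlations of deviations from the group means lay over 0.1 (0.142 to 0.543); the labels give only the number, so this pairing comes from the data. Leaving out the 3 libraries of lowest length gradient was chosen after seeing the data.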

Additional observations from a re-analysis of the deposited data

Results flagged for a closer look

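Of 60 sets of 5 libraries (10 genes in 6 groups), Igfbp2 gave 2 in which the highest library stood far from the others, where chance gives about 1 in 20. Igfbp2 was at 92.5 CPM in refed AL replicate 1, with the nearest library at 33.4 CPM and a gap of 0.914 of the whole range, where 0.71 is the 95% critical value of Dixon's test. It was at 52.5 CPM in refed IF16 replicate 1, with the nearest at 32.3 CPM and a gap of 0.787 of the range. Both libraries had the highest choroid plexus index of their group.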

How the results depend on the processing

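In the 6 comparisons between regimens and the 2 interactions, 0 of the 10 genes were called under every alternative, except that 1 (Irs2) was called in refed IF16 against refed AL without refed IF16 replicate 1 (range 0 to 1 over the libraries left out). Between refed AL and AL the 6 calls became 0 with the length gradient as a covariate, 0 without the 3 libraries of lowest length gradient, 0 in a fit of these groups alone and 3 with the choroid plexus index as a covariate, and ranged from 1 (without AL replicate 4) to 8 (without AL replicate 1) over the libraries left out. With the length gradient as a covariate the log2 fold changes of Map1lc3b and Pik3ca in that comparison were 0.0103 and -0.0192, against the other direction without it. The cause was not tested. Of 40 correlations with the library properties, 11 had an adjusted permutation p under 0.05 and 7 without the 2 farthest libraries. Genes called among all genes differed by tool: DESeq2 called 94 in IF16 against AL, 133 in EOD against AL, 105 in refed IF16 and 87 in refed EOD against refed AL, where edgeR called 8, 11, 28 and 7. It called 123 between refed EOD and refed IF16 (edgeR 3) and 29 and 14 in the IF16 and EOD interactions (edgeR 8 and 2). With the length gradient as a covariate edgeR called 71 genes in IF16, 0 in refed IF16, 0 between refed EOD and refed IF16 and 37 and 6 in the interactions. Between refed AL and AL it called 4030, but 184 with that covariate, 1259 with the choroid plexus index, 28 in a fit of these groups alone, 151 without the 3 libraries, and 830 to 6173 over the libraries left out. Leaving out single libraries gave 3 to 10 calls in IF16, 2 to 6 in EOD, 0 to 65 in refed IF16, 0 to 16 in refed EOD and 0 to 71 between refed EOD and refed IF16. In the groups other than refed AL and refed IF16, same-numbered libraries shared a number without deviating together throughout: correlations ran from -0.665 to 0.472 between the groups of 6 months, from 0.0111 to 0.347 between refed AL and refed EOD and from -0.1 to 0.354 between refed IF16 and refed EOD, and 8 of 30 libraries were closest to their own number. With the replicate number as a block edgeR called 5 genes in IF16, 4 in EOD, 95 in refed IF16 and 45 in refed EOD, 6 of the 10 genes between refed AL and AL and 0 in the other comparisons. The lowest count of the 10 genes in any library was 126, for Igf1.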
